A study of Mus musculus with 8 samples.

Results

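The regions described here are 3853 promoter peaks that were called in an HA ChIP-seq library of EHMT2-dTAG mESCs after the degrader dTAG had been added, and that had no counterpart in the libraries of DMSO-treated cells. A peak was included when it was in the ab9110 dTAG list, overlapped by no base a peak of the ab9110 DMSO list or of the merged C29F4 DMSO list, lay on chromosomes 1 to 19, X or Y, and had its summit within 1 kb of a transcript start of GENCODE (mm10). These are 3853 of the 16324 peaks in the dTAG list, and of 70200 peaks in the 4 lists of the series. The members were chosen by these measured calls, present in one list and absent from the others, so neither is a finding here, and their height is given as a description. They are called dTAG-only promoter peaks below.

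The study asked where EHMT2, an H3K9 methyltransferase, sits on chromatin in mouse embryonic stem cells (mESCs). The cells derive from the KH2 line (a BL6/129 hybrid) and carry, on the endogenous Ehmt2 gene, a tag with the FKBP12F36V degron and 2 copies of the HA epitope, followed after a self-cleaving peptide by nuclear mCherry, and all 8 samples share this allele. They were grown on mouse embryonic feeder cells, harvested with trypsin after 24 h in DMSO or in dTAG13, a molecule that directs FKBP12F36V fusions to the proteasome, and crosslinked with DSG and formaldehyde. The HA antibody ab9110 was used on 1 ChIP and 1 input sample for each treatment, and the HA antibody C29F4 on DMSO-treated cells, with 2 ChIP and 2 input samples of 2 clones whose peaks were called on the merged reads. Which clone the ab9110 samples came from is not given in the sources used here. Each treatment is 1 ab9110 library, so nothing below has a replicate check, and the 95% intervals (exact, Clopper-Pearson) cover counting error only. How much HA-tagged protein was left in the dTAG library cannot be read from a peak list. The paper reports that dTAG13 removed almost all of the tagged protein by Western blot, and all of it by flow cytometry. It also reports that HA ChIP signal fell after depletion at the peaks called in undepleted cells. Whether EHMT2 was bound at the dTAG-only promoter peaks was not tested.

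EHMT2 forms a heteromer with EHMT1 and, together with the zinc finger protein WIZ, places H3K9me1 and H3K9me2, marks of repressed chromatin. Most promoters of broadly expressed genes in mammals lie in CpG islands, GC-rich stretches that keep their CpG dinucleotides, are mostly unmethylated and hold open chromatin. Open, GC-rich promoter DNA is also a known place of raised background in ChIP, which input chromatin helps to gauge.

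The summit sequences of the strongest dTAG-only promoter peaks are shown first, because the comparisons of base composition and motifs below turn on such sequence. Each run is the summit with 60 bases on either side, read 5′ to 3′ on the strand of the nearest transcript from the RefSeq copy of GRCm38 (mm10), and capitals mark CpG dinucleotides. The first 6 are the protein-coding members with the highest −log10 q and the last is the strongest member whose summit is not in CpG-island-like sequence.
Mga: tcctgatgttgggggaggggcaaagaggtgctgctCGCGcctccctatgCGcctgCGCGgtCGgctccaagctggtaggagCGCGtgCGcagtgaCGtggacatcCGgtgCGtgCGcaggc
Hnrnpa2b1: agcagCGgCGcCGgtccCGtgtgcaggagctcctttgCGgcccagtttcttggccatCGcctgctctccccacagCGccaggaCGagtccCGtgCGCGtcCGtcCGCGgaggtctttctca
Qrich1: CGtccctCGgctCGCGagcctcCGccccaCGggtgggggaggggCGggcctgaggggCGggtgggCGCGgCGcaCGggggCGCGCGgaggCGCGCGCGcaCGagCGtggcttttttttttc
Srsf5: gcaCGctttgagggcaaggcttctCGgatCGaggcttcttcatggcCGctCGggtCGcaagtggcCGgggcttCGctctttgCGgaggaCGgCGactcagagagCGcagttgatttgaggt
Gmcl1: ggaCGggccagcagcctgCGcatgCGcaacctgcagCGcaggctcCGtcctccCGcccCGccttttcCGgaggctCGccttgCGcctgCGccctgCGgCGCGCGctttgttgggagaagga
Hmgxb4: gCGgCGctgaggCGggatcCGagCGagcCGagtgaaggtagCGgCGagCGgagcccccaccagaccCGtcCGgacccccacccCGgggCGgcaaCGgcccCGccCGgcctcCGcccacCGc
Shmt2: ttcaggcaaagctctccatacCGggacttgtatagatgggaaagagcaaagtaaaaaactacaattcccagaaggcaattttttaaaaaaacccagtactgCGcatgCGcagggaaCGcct
The windows are chr2:119897126-119897246 (+ strand), chr6:51469722-51469842 (- strand), chr9:108517385-108517505 (+ strand), chr12:80945680-80945800 (+ strand), chr6:86733337-86733457 (- strand), chr8:74993713-74993833 (+ strand) and chr10:127522443-127522563 (- strand). The first 6 hold between 12 and 21 CpG dinucleotides and have a GC content of 62% to 80.2%. The window of Shmt2, the mitochondrial serine hydroxymethyltransferase, holds 4 and has 43.8%. The runs of Gmcl1 and Shmt2 share the palindrome that the NRF1 word GCGCATGCG is part of, and that of Qrich1 holds 2 copies of the SP/KLF word GGGCGGG.

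The highest −log10 q belonged to the peak at Mga, which encodes a MAX-binding repressor of germline genes (chr2:119896961-119897864). Its deposited fold was 9.57 and its −log10 q 20.3, from 33 fragments at the summit against a background of 2.55, and the summit lay 42 bp upstream of the start. The peak at Hnrnpa2b1, an RNA-binding protein of the spliceosome list, had a fold of 8.84 and a −log10 q of 19.4 (chr6:51468764-51471041). Qrich1, a transcriptional regulator of the stress response of the endoplasmic reticulum, had a fold of 8.09 (chr9:108516646-108518188). Srsf5, a splicing factor of the SR family, had a fold of 8.92 (chr12:80945102-80946827). Smarca4, the BRG1 ATPase of the BAF remodelling complex, had a fold of 7.27 (chr9:21615788-21616819), and Rbm39, another splicing factor, one of 7.01 (chr2:156179288-156180739). Hmgxb4 and Hmgxb3, HMG-box proteins, had folds of 8.28 and 8.17. Gmcl1, a BTB adaptor protein, B3galt4, a ganglioside-synthesising enzyme, and Ifnar1, a subunit of the type I interferon receptor, had folds of 8.36, 8.12 and 8.61. All of these summits lay within 182 bp of a transcript start.

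Most members were far weaker than these. Over the 3853 peaks the deposited fold ran from 2.36 to 9.57 with a median of 3.67, and the median −log10 q was 2.55. A median of 14 fragments covered the summit (range 7 to 37), so the calls rest on few fragments. How many calls would change with a few fragments more or less was not tested. The member with the lowest −log10 q was at Gpat4, a glycerol-phosphate acyltransferase, with 1.31 and a fold of 2.72. At q under 0.01, 2600 peaks (67.5%) were left, and at q under 0.001 1509 (39.2%). Promoter peaks of the dTAG list that did overlap a DMSO peak (3312 peaks, called shared promoter peaks below) had a median fold of 4.3 and a median width of 786 bp against 641 bp. The most enriched shared promoters, such as Tnrc18 with a fold of 29.8 and Hsp90aa1, a heat-shock chaperone, with 19.7, exceeded every dTAG-only promoter peak.

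Absence from the DMSO lists was about as frequent at promoters as elsewhere over the whole dTAG list, and more frequent at promoters among its stronger peaks. Of the 7165 promoter peaks of the dTAG list, 53.8% (52.6 to 54.9) were dTAG-only, against a background of 52.7% over all dTAG peaks and 51.8% (50.8 to 52.9) of distal peaks. Promoters made up 44.8% (43.7 to 45.9) of the 8601 dTAG-only peaks and 42.9% (41.8 to 44) of the dTAG peaks that overlapped a DMSO peak. With peaks of q under 0.01 in the dTAG list, 47.5% (46.2 to 48.8) of promoter peaks and 28% (26.7 to 29.4) of distal peaks were dTAG-only, and promoters made up 67.9% of the dTAG-only peaks against 47.6% (46.4 to 48.9) of those that overlapped a DMSO peak. Distal dTAG-only peaks were mostly weak, with 25.9% at q under 0.01. At the limits of the rule, the last members inside 1 kb were at Pkn3 (999 bp, fold 3.37) and Dennd3 (998 bp, 3.65), and the first outside were at Zkscan5 (1007 bp, 3.46) and Prkcq (1009 bp, 4.49). On the side of overlap, the peak at Top1mt touched a DMSO peak end to end (0 bp) and that at Rprd2 missed one by 2 bp. In all, 22 members lay within 50 bp of an ab9110 DMSO peak, and 22 promoter peaks were left out for an overlap of 50 bp or less.

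The ab9110 DMSO list holds 40816 peaks and the ab9110 dTAG list 16324. The lowest background of a list was 1.23 fragments in dTAG and 2.11 in DMSO, as solved from the deposited folds and p-values. If this floor is the mean coverage of each ChIP library, the dTAG library had 58.2% of the DMSO coverage. This ratio is an estimate of relative depth and not a count of reads. The use of input as a control in peak calling is not given in the sources used here. Solved backgrounds at members included the evenly spaced values 1.28, 1.91, 2.55, 3.19 and 3.83, and others between them such as 1.48, 2.22 and 2.96. Whether they come from a control library was not tested. Over the 3300 shared promoter peaks that overlapped an ab9110 DMSO peak, the median deposited fold was 4.3 in dTAG and 3.13 in DMSO. The 2 lists share no normalization, and these folds were not tested against each other.

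Members lay about as far from ab9110 DMSO peaks as distal dTAG-only peaks did. The median gap to the nearest one was 18735 bp for members and 18744 bp for distal dTAG-only peaks. One lay within 1 kb of 326 members (8.46%, 7.6 to 9.38) and of 7.65% of the distal peaks. Overlapping peaks were left out of both sets by the rule. To the nearest C29F4 peak the median gap was 148795 bp for members and 87970 bp for distal dTAG-only peaks. The authors first called regions at p under 0.05 and numbered them along the genome before the q filter, so DMSO regions too weak for the list leave a trace. A gap in those numbers means that weaker DMSO calls lay between the listed DMSO peaks on either side of a member. The numbers left a median of 5 such calls per member, whose positions are unknown. At 139 members the numbers were consecutive (3.61%, 3.04 to 4.25, against 5.24% of distal dTAG-only peaks). No DMSO region was therefore called at these 139 members even at p under 0.05. By −log10 q, the first of these were at Mex3c, an RNA-binding protein (fold 6.86), Sall1, a zinc finger developmental regulator (5.53), Myl12b, a myosin light chain (5.64), Gm44297, annotated as a miRNA gene (5.77), and Fam117b (6.48).

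Summits gathered at the transcript start. The median distance was 102 bp, and 1909 of the 3853 (49.5%, 48 to 51.1) lay within 100 bp. The shared promoter peaks lay closer, with a median of 81 bp and 56.6% (54.9 to 58.3) within 100 bp. Members also lay more often at or downstream of the start, 53.8% (52.2 to 55.4) against 47.9% (46.1 to 49.6). In all, 12.6% (11.5 to 13.6) of summits were in coding exons against 8.7% (7.76 to 9.71), and 39% were in noncoding parts of exons, 25.3% in introns and 23.2% outside genes. A pair of divergent starts, a minus-strand start to the left of a plus-strand start, lay within 1 kb of 19.5% (18.2 to 20.8) of members and 21.6% (20.2 to 23) of shared peaks.

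**Figure D1:**
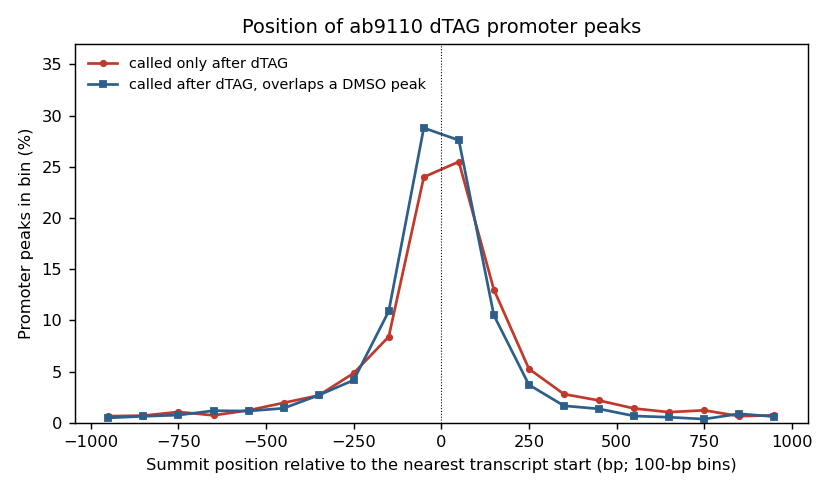
Share of promoter peaks (y axis, %) in 100-bp bins of summit position relative to the nearest transcript start (x axis, bp, positive downstream), for 3853 dTAG-only promoter peaks (circles) and 3312 promoter peaks that overlap a DMSO peak (squares). Members peak just downstream of the start, with 25.5% in the first 100 bp downstream and 24% in the first 100 bp upstream, while shared peaks have 27.6% and 28.8%, and from 100 to 200 bp downstream members have 13% against 10.5%.

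Members were more GC-rich than the other promoter peaks. The median GC content was 64.3% (quartiles 57.9 and 69.6) in members and 60.5% (55.3 and 65.4) in shared promoter peaks. The 3438 promoter peaks of the DMSO list that overlapped no dTAG peak had a median of 52.6% (48 and 58.5), and the 4748 distal dTAG-only peaks 45.1%. The order from dTAG-only through shared to DMSO-only promoters thus ran from high to low GC. A window of 150 bp on either side of the summit met CpG-island criteria (GC of at least 50% and a CpG observed/expected ratio of at least 0.6) in 3036 members, or 78.8% (77.5 to 80.1). Shared promoter peaks reached 78% (76.6 to 79.4), DMSO-only promoter peaks 28.5% (27 to 30.1), distal dTAG-only peaks 5.64%, and the starts of all 21938 protein-coding genes 47.5%. A CpG-island-like summit window was therefore common to both kinds of dTAG promoter peak, while very high GC was more frequent among members. Among dTAG promoter peaks of 50% to 55% GC, 40.7% (37.3 to 44.2) were dTAG-only, and above 75% GC 82.1% (77.4 to 86.2). Below 45% GC the share was 61% (54.7 to 67.1), so the relation was not one-directional. Whether the libraries differ in their recovery of GC-rich fragments, which would move with this result, was not tested.

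**Figure D2:**
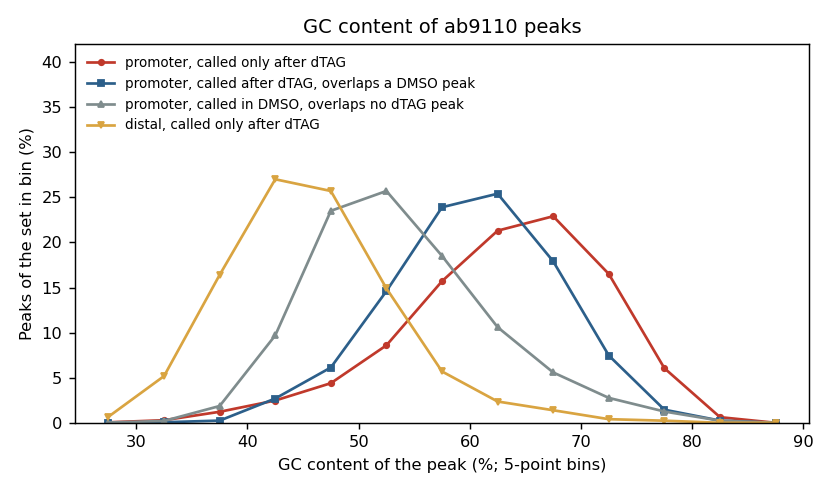
GC content of ab9110 peaks (x axis, %, bins of 5 points) against the share of each set in the bin (y axis, %), for dTAG-only promoter peaks (circles), promoter peaks called after dTAG that overlap a DMSO peak (squares), promoter peaks called in DMSO that overlap no dTAG peak (triangles up) and distal dTAG-only peaks (triangles down). The members' curve is highest from 65% to 70% GC (22.9% of members), and the curve of DMSO-only promoters from 50% to 55% (25.7%).

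At the level of genes, 3803 of 21938 protein-coding genes had a dTAG-only promoter peak within 1 kb of a start, a background of 17.3%. A shared promoter peak was found at 15.7% of genes and a DMSO peak without dTAG overlap at 10.4%. Of the 6996 genes with any dTAG promoter peak, 3552 (50.8%) had one only through members. Another start of the same gene or another part of the promoter carried an ab9110 DMSO peak at 503 of the 3803 genes (13.2%). Over all protein-coding genes, 25.1% had an ab9110 DMSO promoter peak. The rule, which leaves out overlapping peaks, lowers the share among genes with a member. The share of genes with a member climbed steeply with the GC content of the gene start, from 3.99% (3.34 to 4.72) below 45% GC to 38.7% (36.2 to 41.2) above 75%. For shared peaks it went from 3.24% through 23.9% at 65% to 70% GC to 17.2% (15.3 to 19.2) above 75%, and for DMSO-only promoter peaks it stayed between 10.3% and 12.8% from 50% GC upward.

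**Figure D3:**
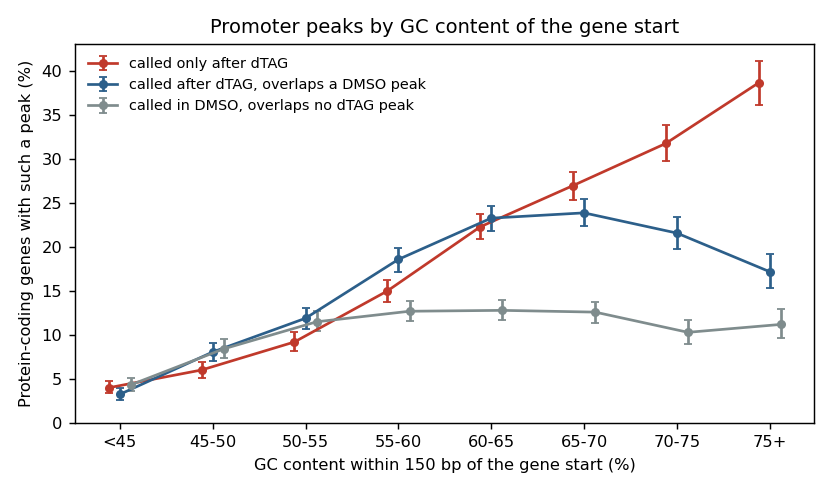
Share of protein-coding genes (y axis, %) with a promoter peak of each kind, by GC content within 150 bp of the gene start (x axis, %), with 95% binomial intervals as bars. The dTAG-only share keeps climbing to 38.7% in the most GC-rich class, whereas the shares of the other 2 kinds are 17.2% and 11.2% there.

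The X chromosome had fewer members. Of its 948 protein-coding genes, 76 (8.02%, 6.37 to 9.93) had one, against 17.9% (17.4 to 18.4) on autosomes. Shared promoter peaks had the same shape, with 6.86% on X and 16.2% on autosomes. On Y it was 0 of 183 genes. Autosomes ranged from 13.5% on chromosome 6 to 23.7% on chromosome 8. Shared promoter peaks were at 14.8% of genes on chromosome 6 and at 22.8% on chromosome 8.

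Genes of splicing and of DNA replication had members most often among the 20 gene lists, with intervals that overlapped those of other lists. The lists are not matched to all genes in the GC content of their starts. How far GC content accounts for their shares was not tested. In the spliceosome and SR list, 33 of 68 genes (48.5%, 36.2 to 61) had a dTAG-only promoter peak beside the background of 17.3%, and 25 (36.8%, 25.4 to 49.3) had a shared peak beside 15.7%. Besides Hnrnpa2b1 and Srsf5, this list held Srsf6 (fold 7.76), Srsf7 (7.21) and Srsf1 (6.59), all SR splicing factors, Snrpg (6.21), a core Sm protein, and Sf3b3 (5.57), a subunit of the U2 snRNP. In the replication list it was 20 of 38 (52.6%, 35.8 to 69), while 10 (26.3%, 13.4 to 43.1) had a shared peak. By −log10 q its first members were Gins1 (5.49), a subunit of the replicative helicase, Pole3 (4.54), an accessory subunit of DNA polymerase epsilon, and Pola2 (3.71), of primase-polymerase alpha. Orc2 (4.32) and Cdc6 (4.23), which load the helicase at origins, and Mcm6 (3.74), a subunit of it, were members as well. Peaks of this list were of ordinary height, with a median fold of 3.73.

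The lists of ribosomal proteins differed in how often they had members. Of 84 cytosolic ribosomal protein genes, 37 (44%, 33.2 to 55.3) had a member and 33 (39.3%) a shared peak. Rps16 had a fold of 5.97 and Rplp2, of the ribosomal stalk, one of 5.25. Of 78 mitochondrial ribosomal protein genes, 11 (14.1%, 7.26 to 23.8) had a member, close to the background, and 36 (46.2%, 34.8 to 57.8) a shared peak. The few members there were strong, with Mrps18c at 7.49 and Mrps14 at 5.71. Translation factors had members and shared peaks equally often, each at 24 of 68 genes (35.3%, 24.1 to 47.8), led by Eif1a (6.21), Eif5 (5.93) and Eif4b (5.71), all initiation factors. Aminoacyl-tRNA synthetases, which charge tRNAs, had members at 11 of 37 genes (29.7%) and shared peaks at 16 (43.2%). At q under 0.01 only 5 of the 11 were left, Vars2, the mitochondrial valyl-tRNA synthetase, among them with a fold of 5.46.

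Several lists of housekeeping genes had members near the background and shared peaks well above theirs. For RNA polymerase II, TFIID, general factors and Mediator it was 19 of 83 (22.9%, 14.4 to 33.4) against 42 (50.6%, 39.4 to 61.8). Members here were modest, with Tbp, the TATA-binding protein, at 3.61 and Med14, a Mediator backbone subunit, at 4.84. Respiratory chain genes had members at 20 of 93 (21.5%) and shared peaks at 40 (43%), with Atp5k, a subunit of ATP synthase, highest at 7.89 and Cox8a, of cytochrome c oxidase, at 5.35. Heat-shock and chaperone genes had members at 19 of 83 (22.9%) and shared peaks at 37 (44.6%). Dnajc7, a co-chaperone, had a fold of 7.67, and Cct2 and Tcp1, subunits of the CCT chaperonin, 5.45 and 5.05. Proteasome subunits had members at 9 of 39 (23.1%), led by Psma4 at 4.33, and DNA repair genes at 8 of 41 (19.5%), with Ercc6 at 5.73 and Atm, the damage-response kinase, at 4.34. Clustered histone genes had members at 16 of 68 (23.5%, 14.1 to 35.4) and shared peaks at 39 (57.4%, 44.8 to 69.3). A histone gene was the nearest one for 8 members, Hist1h3d at 6.51 the highest, and near-identical histone copies make the placement of reads uncertain. Zinc finger protein genes had members at 88 of 461 (19.1%, 15.6 to 23) and shared peaks at 27.1%, with Zbtb25 (6.57), Zfp119a (5.97) and Zbtb2 (5.87) strongest.

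**Figure D4:**
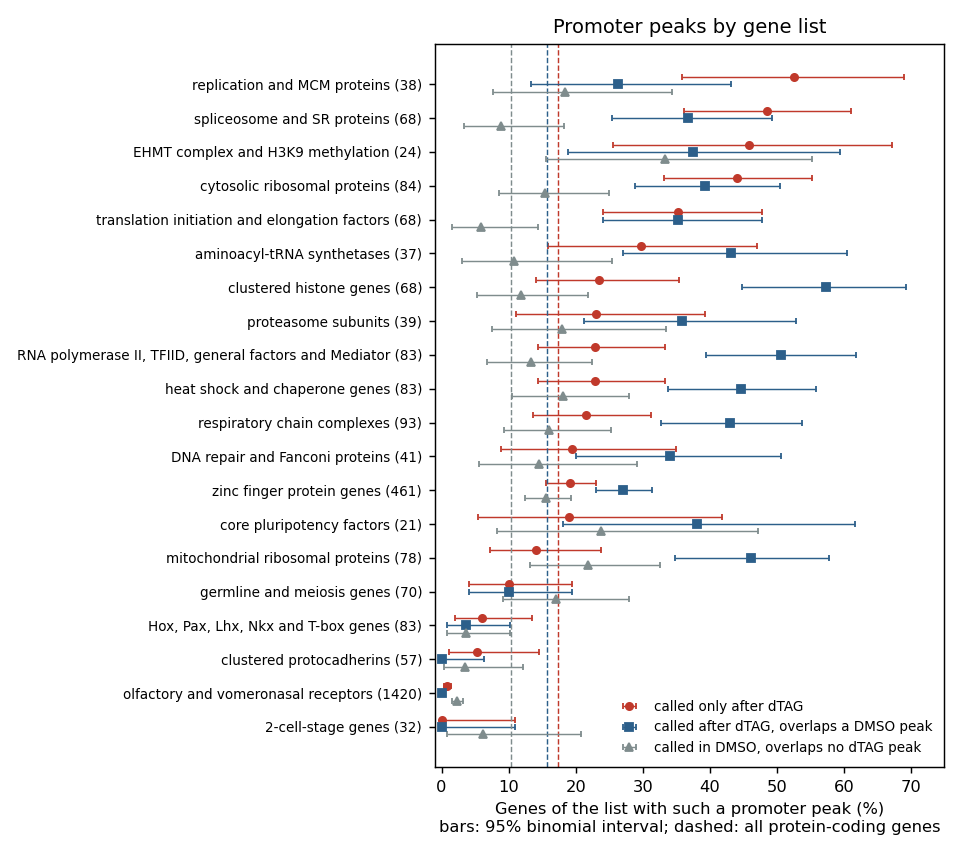
Share of the genes in each of 20 lists (y axis, number of genes in brackets) that have a promoter peak of each kind (x axis, %), with 95% binomial intervals as bars and dashed lines at the share over all protein-coding genes (17.3%, 15.7% and 10.4%). Replication and spliceosome genes have the highest dTAG-only shares (52.6% and 48.5%), and histone, polymerase II and mitochondrial ribosomal protein genes the highest shared ones (57.4%, 50.6% and 46.2%).

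The EHMT complex and the H3K9 machinery were represented. Of 24 genes, 11 (45.8%, 25.6 to 67.2) had a member, 9 (37.5%) a shared peak and 8 (33.3%, 15.6 to 55.3) a DMSO peak without dTAG overlap. Beside the 17.3%, 15.7% and 10.4% of all genes, the list was above the background in all 3 kinds of promoter peak. Within 500 bp of a start, 6 of the 24 genes had a member, beside 16% of all protein-coding genes at that distance. No interval was computed for this smaller count. Suv39h2, an H3K9 methyltransferase of heterochromatin, had a fold of 6.59 and Zfp644, a zinc finger partner of the EHMT complex, one of 6.03. Uhrf1, which binds hemimethylated DNA and H3K9me marks, had 3.52, and the H3K9 demethylases Kdm4b, Kdm3a and Kdm3b had 4.12, 3.59 and 3.41. Ehmt2 itself had a member within 1 kb of a start (chr17:34898026-34898815), with a fold of 4.88 and a −log10 q of 4.52, and no DMSO peak of either antibody. The start nearest to that summit was of the neighbouring complement gene C2, 95 bp away. Ehmt1 had no member, since its dTAG promoter peak (fold 7.32) overlapped an ab9110 DMSO peak (3.13). Wiz had 4 dTAG peaks at its starts, of which those with folds of 2.9 and 3.78 were members and those with 3.67 and 5.91 overlapped DMSO peaks.

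Receptor genes and developmental homeobox and T-box genes had few dTAG promoter peaks, dTAG-only or shared, and pluripotency factors about as many members as other genes. Shared peaks were at 3 of 83 Hox, Pax, Lhx, Nkx and T-box genes (3.61%), 0 of 57 clustered protocadherins and 1 of 1420 olfactory and vomeronasal receptors (0.0704%). Germline and meiosis genes had shared peaks at 7 of 70 (10%), beside 15.7% of all genes. Of 21 core pluripotency factors, 4 had a member (19%, 5.45 to 41.9), near the background of 17.3%. A shared peak was at 8 of them (38.1%, 18.1 to 61.6), above the 15.7% of all genes. These 4 were Sall4 (5.14), Sox2 (3.58), Klf4 (3.54) and Klf5 (3.15), all transcription factors of the stem cell state. Hox, Pax, Lhx, Nkx and T-box genes, most of them in CpG islands held by Polycomb in mESCs, had members at 5 of 83 (6.02%, 1.98 to 13.5), Hoxc6 the strongest at 3.86, and at q under 0.01 1 of the 5 was left. Germline and meiosis genes had them at 7 of 70 (10%, 4.12 to 19.5), an interval that holds the background, with Tdrd7 (5.24) and Tdrd5 (4.66), Tudor proteins of germ granules, in front. Of 32 genes of the 2-cell stage, 0 had a member or a shared peak (0 to 10.9). Clustered protocadherins had members at 3 of 57 (5.26%), of which 1 was left at q under 0.01. Olfactory and vomeronasal receptors had them at 11 of 1420 (0.775%, 0.387 to 1.38), of which 3 were left at q under 0.01 and 6 within 500 bp of a start. Of these 11, the strongest was Olfr109 at 4.39, from 9 fragments over a background of 1.28, and Olfr1123 and Olfr568 had 8 fragments each. These receptor genes are known for expression in sensory neurons, and the median fold of their members was 3.59.

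Most members belonged to protein-coding genes. The nearest start was of a protein-coding gene for 3423 peaks (88.8%, 87.8 to 89.8), of a lincRNA for 102, of an antisense transcript for 89, of a processed pseudogene for 53 and of a miRNA for 25. The strongest noncoding ones were Gm47287, annotated as a miRNA gene (chr12:69158755-69159736, fold 9.01), Mir2861 (chr2:32712406-32713622, 8.25) and the processed transcript Gm20544 (7.27). The 3423 peaks fell on 3237 genes. More than 1 member was found at 176 genes, and Gse1, a subunit of a corepressor complex, and Myo10, an unconventional myosin, had 4 each, spread over several starts.

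Of 14 short motif words searched on both strands of the same summit windows, several of those common at shared promoter peaks were rarer at members. The ZNF143/THAP11 core ACTACAA was in 3.09% (2.57 to 3.68) of members and 9.15% (8.19 to 10.2) of shared peaks, and in 3.26% of the same windows at all protein-coding starts. The YY1 word AAGATGGCG was in 2.93% (2.42 to 3.52) against 7.46% (6.59 to 8.41), with 2.21% over all starts. The NRF1 word GCGCATGCG was in 3.24% (2.71 to 3.85) against 7.28% (6.41 to 8.21), with 2.09% over all starts. For these 3 words, the shares of members were nearer to those of all starts than to those of shared peaks. For NRF1 and YY1 they were still above all starts (1.91 to 2.29 and 2.02 to 2.41). All starts, of which 47.5% had a CpG-island-like window, are not matched to members in base composition. The ETS word CCGGAAG was in 14.1% (13 to 15.2) against 19.7% (18.3 to 21.1), with 11.5% over all starts (in windows of 50 bp on either side the order against all starts turned, 5.14% against 6.65%), and the E-box CACGTG in 10.5% against 14.6%, with 7.44%. The order turned for the SP/KLF GC box GGGCGGG, which was in 45.4% (43.9 to 47) of members, 39.6% (37.9 to 41.2) of shared peaks and 32.7% of all starts. The CTCF core AGGGGGC was in 15.1% (13.9 to 16.2), 12.7% (11.6 to 13.9) and 12.2%.

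The CREB/ATF word TGACGTCA was also rarer at members, in 2.15% (1.72 to 2.66) against 3.65% (3.04 to 4.35), with 2.34% over all starts. The intervals of members and shared peaks overlapped for the remaining words. The E2F word TTCCCGC was in 10.1% and 10% (6.23% of all starts), the NFY box CCAATCA in 4.54% and 4.86% (8.47%), the RFX word GTTGCCA in 2.8% and 3.02% (3.9%) and the TATA box TATAAAA in 1.45% and 1.63% (4.05%). The octamer ATGCAAAT was in 0.831% and 0.845% (1.27%). The related CREB/ATF word TGACGTA was in 1.69% and 2.32% (1.43%). CACGTG and TGACGTCA are palindromes, and GCGCATGCG overlaps its own reverse complement in GCGCATGCGC. GGGCGGG and AGGGGGC are GC-rich, and how far the members' GC content accounts for their frequency was not tested. A match is a stretch of letters and not a bound site.

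**Figure D5:**
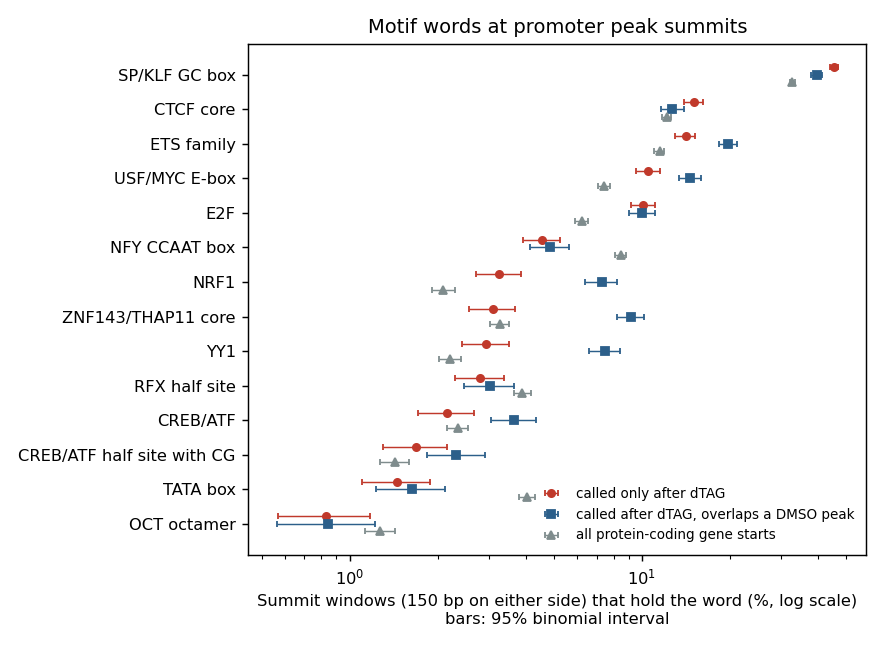
Share of summit windows (150 bp on either side) that hold each motif word on either strand (x axis, %, log scale) for the 14 words searched (y axis), in dTAG-only promoter peaks (circles), promoter peaks that overlap a DMSO peak (squares) and all protein-coding gene starts (triangles), with 95% binomial intervals as bars. ZNF143/THAP11, YY1 and NRF1 words are at 2.93% to 3.24% in members and at 7.28% to 9.15% in shared peaks, and the SP/KLF GC box is at 45.4% and 39.6%.

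Sequence also varied with the strength of the call among members, which were split by −log10 q into 4 classes of 963 or 964 peaks. In the strongest class (−log10 q of at least 4), 92.4% had a CpG-island-like window, and in the following classes 84%, 76.3% and 62.4%. From the strongest to the weakest class, median width went from 839 bp to 484 bp, the median distance to the start from 75 bp to 152 bp, and the share at divergent starts from 24.4% to 12.4%. The NRF1 word was in 6.23% of the strongest class, near the shared peaks, and in 1.45% of the weakest, and the SP/KLF word in 52.1% and 35.9%. The ZNF143/THAP11 word did not follow this, with 3.32% and 3.63%. The strongest calls were thus those closest to starts and most often in CpG-island-like sequence. The q-value was part of the choice of members, and these values are descriptions.

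The 817 members (21.2%) without a CpG-island-like window lay further from the start, with a median of 287 bp against 82 bp. Their nearest start was protein-coding in 73.3% against 93%, and 14.9% of their bases were soft-masked as repeats or low-complexity sequence against 7.05%. Shmt2 led them with a fold of 7.38 (chr10:127521974-127522713). Ndufaf3, an assembly factor of complex I, had 5.68, Nqo1, a quinone reductase, 5.74, and Clta, a clathrin light chain, 5.49. Sall1 was also in this class by a narrow margin, with a CpG observed/expected ratio of 0.59 in its window.

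The solved background at members was mostly above the floor of the list. The median background at the summit was 2.29 times the lowest of the list in members, 2.6 times in shared promoter peaks and 1.21 times in distal dTAG-only peaks, and it was above the lowest in 97.1% of members and 68.2% of distal peaks. This background is the local level against which the pileup was set, and if it was taken from input, these ratios describe raised input at members. In the dTAG input, which is chromatin sequenced without antibody, few of these places were called as peaks. That list holds 2050 peaks with a median width of 207 bp, and input raised below its threshold would leave no peak in it. An input peak overlapped 28 members (0.727%, 0.483 to 1.05), 1.27% of shared promoter peaks and 0.105% of distal dTAG-only peaks. The strongest members with an input peak were at Nucks1 (fold 4.2, background 6.38), Cnot7 (3.99, 7.02) and Rnf111 (5.46, 2.66). Soft-masked bases made up 8.3% of members' sequence, 10.5% of that of shared promoter peaks and 36.1% of that of distal dTAG-only peaks, and 59 members (1.53%) were soft-masked over at least 50% of their length. The part of background, GC content and depth in these calls was not tested, and HA ChIP from cells without the tag was not analysed here.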

How the data were processed

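HA ChIP-seq and input peak lists of EHMT2-dTAG mESCs were analysed (1 list per ab9110 ChIP, 1 merged C29F4 list and 1 dTAG input list). Per the methods and the submitters' processing notes, the authors aligned reads to mm10 with STAR (2.7.10), placing a read with several equal hits at 1 of them at random, processed them with Picard (2.26.0), SAMtools (1.14) and bedtools (2.30.0), removed blacklisted regions, called peaks with MACS2 (2.2.6) on paired-end fragments at p under 0.05 and kept q under 0.05. deepTools (3.5.1) is also named. Random placement leaves peaks in near-identical copies uncertain. The deposited columns are an integer score, which was not used as a measurement, the fold enrichment (a ratio of pileup to background), −log10 p, −log10 q and the offset of the summit from the peak's start. Each list carries its own scaling. Read totals were not analysed here.

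Pileup and background at a summit were solved from the deposited fold, (pileup + 1)/(background + 1), and Poisson p (largest misfit 5.7e-05 in −log10 p). Overlap (1 bp or more), distances to 141730 transcript starts of GENCODE M21 (GRCm38), base composition from RefSeq GRCm38 and motif words were computed with Python (3.11.15), pandas (2.3.3), numpy (2.4.6), scipy (1.17.1) and pysam (0.24.0). Overlap calls were checked on simulated intervals against bedtools (2.31.1). The nearest gene is that of the closest start. A gene counts as having a peak when a summit is within 1 kb of any of its starts. Samples were grouped by the labels' antibody, treatment and library kind. Shares have exact binomial intervals, and no test between treatments was made with 1 list each. Peaks and genes are not independent, as neighbours share peaks. Named genes are the 12 protein-coding members and the 3 noncoding members with the highest −log10 q, the first 3 of each gene list, and Ehmt2, Ehmt1 and Wiz, of which some are not reported here. Others were named after their values were seen. Gene lists are patterns of gene symbols, so that for example every gene named Tex is in the germline list. Members and lists were chosen with earlier results of these data known. Alternatives were stricter q, other distances to the start, coding starts only, widened DMSO peaks, input removal, ab9110 DMSO alone and a summit window of 50 bp on either side. One dTAG peak off chromosomes 1 to 19, X and Y was left out.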

Additional observations from a re-analysis of the deposited data

How the results depend on the processing

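The number of members stayed within 1.5 times of 3853 under every alternative run. At q under 0.01 in the dTAG list, 47.5% of dTAG promoter peaks were dTAG-only, promoters made up 67.9% of dTAG-only peaks, 12.5% of protein-coding genes had a member, the median GC was 64.8% and 85.8% of windows were CpG-island-like. At q under 0.01 in all 3 ChIP lists the first 3 shares were 57.5%, 68.7% and 15.1%, and the CpG-island-like share was 85.7%. Promoters made up 40.6%, 49% and 39.7% of dTAG-only peaks with starts within 500 bp, within 2 kb and of protein-coding transcripts only. The percent of genes was then 16%, 18.5% and 16.8%, the median GC 64.8%, 63.3% and 65.1%, and the CpG-island-like share 83.5%, 73.3% and 85%. With DMSO peaks widened by 500 bp, 50.7% of promoter peaks were dTAG-only and 16.5% of genes had a member. A window of 50 bp on either side of the summit gave a CpG-island-like share of 74.5%. Input removal and the ab9110 DMSO list alone moved none of these values beyond their counting intervals.

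In this shorter window, motif words were in 5.14% (ETS), 1.61% (NRF1), 19.9% (SP/KLF), 1.27% (NFY), 0.856% (CREB/ATF), 0.545% (the CREB/ATF word TGACGTA), 4.15% (E-box), 1.3% (YY1), 0.519% (TATA), 3.61% (E2F), 1.22% (ZNF143/THAP11), 0.285% (octamer), 5.79% (CTCF) and 0.96% (RFX) of members. There the order of members against all starts turned for ETS (6.65% of all starts), TGACGTA (0.684%) and ZNF143/THAP11 (1.13%), and against shared peaks for TATA (0.393%) and the octamer (0.242%). At q under 0.01 in the dTAG list they were in 15.4% (ETS), 4.04% (NRF1), 49.6% (SP/KLF), 2.77% (CREB/ATF) and 0.846% (TATA). The cause of the shifts with q was not tested.

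No paired analysis was possible because the C29F4 replicates are merged into 1 list, each ab9110 treatment has 1 ChIP library and no result comes from a test. For the same reason no replicate was left out. A median of 14 fragments per summit limits every call.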
